A study of Rattus norvegicus with 421 samples.

Results

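The genes described here carry out fatty acid oxidation in the liver cell. They are a list of 35 genes put together by function, in 4 roles: peroxisomal enzymes and proteins, the carnitine shuttle, the mitochondrial oxidation spiral, and genes of fat handling and its control. The list was chosen with earlier results of these data known. Of the 35, 34 had a probe set that the array annotation gives to that gene alone (9 of 10 peroxisomal genes, all 5 of the carnitine shuttle, all 13 mitochondrial genes and all 7 of fat handling), out of 10411 genes named on the array. The exception was Acaa1a, a peroxisomal thiolase, whose probes are shared with another gene. For the 7 members with several probe sets the brightest, by its mean signal, was read.

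RNA was taken from the livers of male Wistar Hanover rats, 8 to 10 weeks old, dosed daily by gastric gavage over at most 14 days, with livers of the day groups taken 1 day after the last dose, and was hybridised to single-colour rat arrays of 15866 probe sets. There were 293 arrays of treated and 128 of vehicle livers, in 98 treated groups (97 of 3 animals and 1 of 2) for 30 compounds and in 38 vehicle groups (32 of 3, 2 of 4 and 4 of 6 animals). The series' own description says that 3 of the 5 animals dosed in each group were picked on histopathology, so that the spread between the arrays is that between chosen animals. No genetic change was made in any group. The main inducers were Wy-14643 (Wy, 60 mg/kg, days 1 and 3), a synthetic agonist of the receptor PPARα, and Dehydroepiandrosterone (DHEA, 600 mg/kg, days 1, 3, 7 and 14), an adrenal steroid, both in carboxymethylcellulose (CMC). Piperonyl-butoxide (PBO, 1200 mg/kg) and Diethyl-stilbestrol (DES, 10 mg/kg) were given to days 1 and 3, and Ethionine (ETH, 200 mg/kg) to days 1, 3, 7 and 14, all in CMC. Acetaminophen (Aap, 4250 mg/kg) was sampled at 6, 12, 24 and 48 hours beside a 0.9% saline vehicle. Further CMC compounds were Acetamide (AA, 3000 mg/kg), Aflatoxin B1 (AB1, 0.24 mg/kg), Methapyrilene HCl (MPy, 60 mg/kg), Thioacetamid (TAA, 19.2 mg/kg), Methylcarbamate (Mcarb, 400 mg/kg), Nifedipine (Nif, 3 mg/kg), Ibuprofen (Ibup, 94 mg/kg), Prazosin (Praz, 1 mg/kg), Propranolol (Prop, 40 mg/kg), Clonidine (Clon, 0.1 mg/kg), Cefuroxime (CFX, 250 mg/kg), Phenobarbital (PB, 80 mg/kg), 2-Acetylaminofluorene (2-AAF, 1.2 mg/kg), Allyl alcohol (AlAl, 36 mg/kg), N-Nitrososmorpholine (NNM, 3.5 mg/kg), N-Nitrosopiperidine (NPip, 20 mg/kg) and the tobacco nitrosamine NNK (20 mg/kg). Given in corn oil were Cyproterone acetate (CPA, 100 mg/kg), 1,4-Dichlorobenzene (DCB, 300 mg/kg), Methylendianiline (MDA, 50 mg/kg), C.I Direct Black (CIDB, 146 mg/kg), Dimethylnitrosamine (DMN, 4 mg/kg), 2-Nitrofluorene (2-NF, 44 mg/kg) and 3-Methylcholanthrene (3-MC, 25 mg/kg). Each treated group was set against the vehicle group of the same day that its label names, and several compounds share one: Wy, DHEA, AA, AB1, MPy, TAA and Mcarb share CMC arrays, as do PBO, ETH and DES, as do CFX, Clon, Ibup, Nif, Praz and Prop, as do AlAl, NNK and NNM, as do PB and 2-AAF, and so do the corn oil compounds CPA, DCB and MDA, and CIDB, DMN and 2-NF.

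Fatty acids reach the liver cell bound to carriers such as FABP1 and are activated to their coenzyme A esters by enzymes such as ACSL1. Very long and branched chains are shortened first in the peroxisome, where EHHADH and HSD17B4 carry the hydratase and dehydrogenase steps, whereas long chains enter the mitochondrion as carnitine esters through CPT1, the translocase SLC25A20 and CPT2, and are then degraded by chain-length specific acyl-CoA dehydrogenases and the trifunctional protein of HADHA and HADHB. The nuclear receptor PPARα senses fatty acids, binds DNA as a pair with RXR, and is known in rodent liver for raising these genes together and for multiplying peroxisomes. Its element, DR1, is a direct repeat of the half-site AGGTCA with 1 base between the copies.

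That element was looked for, on both strands and with up to 2 mismatches, in the 300 bases from 250 before to 50 after the start of each gene in RefSeq's promoters of the rat genome GRCr8, and 29 of the 35 members had an entry. A match lay in 6 of the 29, against 3.77% of 33469 promoters of all genes, and with at most 1 mismatch in 2, against 0.439%. The half-site alone lay in 8 of the 29 and in 16.2% of all promoters, overlapping the longer matches. The 5 windows upstream of a start are shown because their genes moved in different ways below: Crat and Acadvl rose with Wy and DHEA, Amacr fell, and Fabp1 and Echs1 did neither. Each is written 5′ to 3′ in the direction of its gene, with the match in capitals. The sixth, of Slc25a20, begins 15 bases after its start. A match describes letters only, not a bound site, and a window without one says nothing about the receptor.
Acadvl, chr10:55236706-55236747, minus strand, 1 mismatch, from 17 bases before the start: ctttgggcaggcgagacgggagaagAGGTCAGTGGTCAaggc
Fabp1, chr4:104749238-104749300, plus strand, 1 mismatch, on the opposite strand, from 77 bases before the start: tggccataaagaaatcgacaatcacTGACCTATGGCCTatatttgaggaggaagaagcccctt
Amacr, chr2:61673102-61673164, plus strand, 2 mismatches, from 208 bases before the start: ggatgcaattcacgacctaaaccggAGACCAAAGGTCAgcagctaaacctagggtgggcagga
Crat, chr3:34087285-34087347, minus strand, 2 mismatches, from 223 bases before the start: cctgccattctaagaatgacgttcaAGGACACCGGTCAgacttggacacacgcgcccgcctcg
Echs1, chr1:204333624-204333686, minus strand, 2 mismatches, on the opposite strand, from 155 bases before the start: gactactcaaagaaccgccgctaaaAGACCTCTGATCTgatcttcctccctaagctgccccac

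Values are log2 RMA signals, on which a difference of 1 is a doubling, and array medians lay between 7.38 and 7.49. A change is the mean of a treated group minus that of its vehicle group, given with its standard error (SE) and the adjusted p of limma's moderated test, Benjamini-Hochberg adjusted over all 15866 probe sets. A member was called higher or lower, and is said to have risen or fallen, where the adjusted p was below 0.05 and the change at least 1.5-fold. The p-values rest on a spread between animals that is pooled, for each probe set, over all groups of the fit. They do not measure the spread within the compared groups alone. The hepatocyte markers were high on every array (13.4 to 14.2 over the mean of 7 genes, median 14.0). On 7 arrays skeletal muscle or pancreas transcripts stood above the rest, among them replicate 3 of Aap at 6 hours (muscle marker mean 9.87, against a median of 5.51 over all arrays), replicate 3 of Wy day 1 (pancreas 10.0, median 6.70), replicate 1 of Praz day 1 and replicate 3 of NPip day 7. The others were replicate 3 of the CMC vehicle of PB and 2-AAF on days 7 and 14 and replicate 1 of NNK day 14. No member was called in PB or 2-AAF on those days or in NNK on day 14, with or without these arrays. Where leaving out such an array changed the calls of members, this is stated below. In whole liver, fewer cells of a type and less RNA per cell cannot be told apart.

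Over all 98 treated groups the 34 members were called in 344 of 3332 comparisons of a gene with a group, 247 higher and 97 lower, or 10.3%, against 1.75% of all probe sets. These comparisons are not independent, because compounds share vehicles and days share compounds. Since the list was chosen with earlier results of these data known, its share is not an independent test. The calls were gathered in few compounds. Wy and DHEA called 18 to 29 members at every time, ETH and PBO up to 17, and Aap up to 12. No member was called in 43 groups, and 7 compounds (2-AAF, AlAl, CFX, Clon, Mcarb, Prop and TAA) had none at any time. In those 43 groups the median change of the members lay between -0.14 and 0.17, and 0.306% of all probe sets were called.

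**Figure D1:**
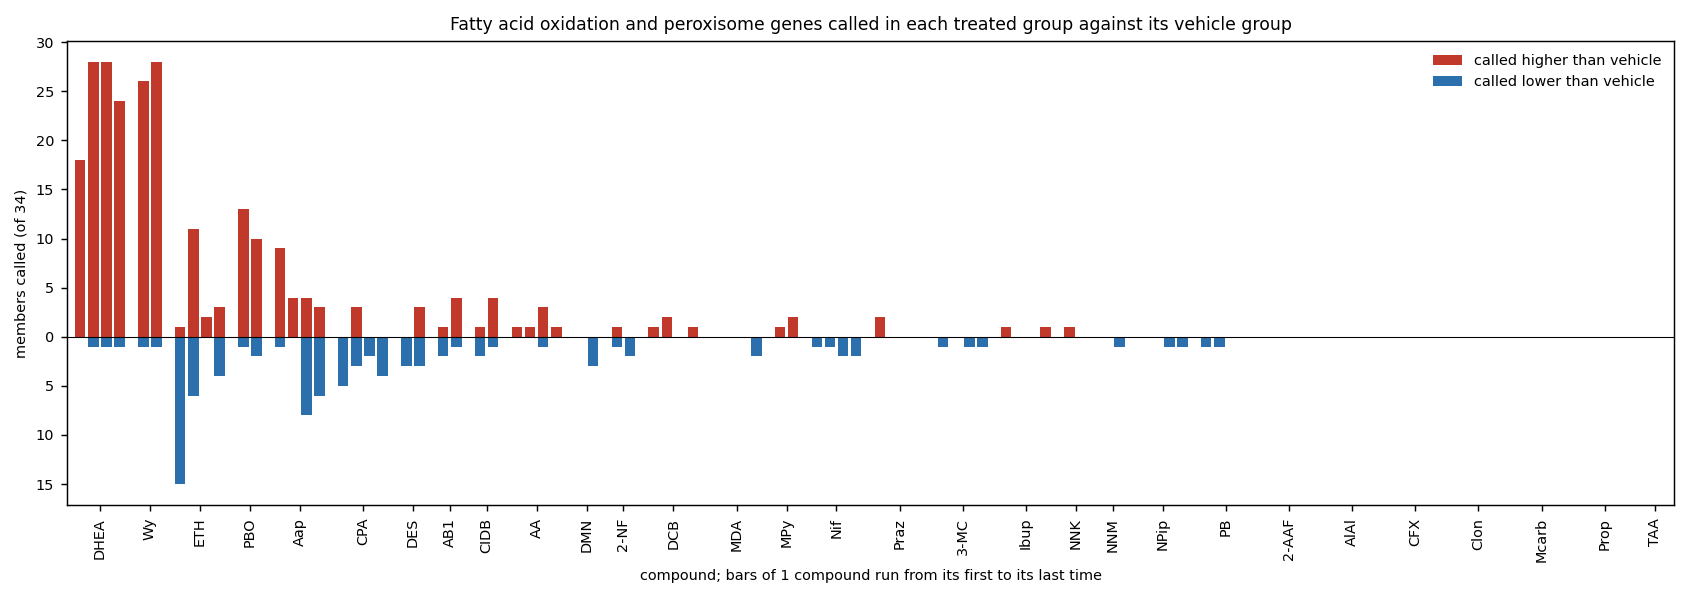
Number of the 34 measured members called higher (red, upward) or lower (blue, downward) in each of the 98 treated groups, ordered by compound and time. Wy and DHEA show 18 to 28 members higher with at most 1 lower, while ETH and Aap show bars in both directions.

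After 1 day of Wy, 26 of the 34 members had risen and 1 had fallen, whereas over the whole array 2.42% of probe sets were higher and 1.69% lower, and the median change of the members was 1.07, against -0.01 over all probe sets. After 3 days 28 had risen (2.44% of all probe sets higher) and 1 had fallen (1.41% lower), with a median of 1.25, against -0.03. With DHEA 18 had risen on day 1 (2.21% of all probe sets higher) and none had fallen, with a median of 0.82. On day 3 DHEA raised 28 members and lowered 1 (2.48% and 1.75% of all probe sets), on day 7 again 28 and 1 (3.32% and 2.58%), and on day 14 it raised 24 and lowered 1 (2.29% and 2.24%). The DHEA medians of days 3, 7 and 14 were 1.33, 1.41 and 1.04. All 5 members of the carnitine shuttle rose in every one of these groups but DHEA day 1, where 4 did. Of the 9 peroxisomal members 6 rose at each time except DHEA day 1 (5). The mitochondrial role gave 10 and 11 of 13 in Wy at days 1 and 3, and 6, 11, 11 and 8 of 13 in DHEA at days 1, 3, 7 and 14. Without the Wy day 1 array with pancreas transcripts, 24 members were higher and 1 lower, since Etfdh and Acsl1 were no longer called.

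Ehhadh, the peroxisomal bifunctional enzyme, measured 13.90, 14.02 and 13.97 in the livers of Wy day 1, against 10.89, 10.84 and 10.11 in those of the vehicle. On day 3 of Wy it read 13.72, 14.19 and 14.23, against 10.56 to 11.24 in 6 vehicle livers. The DHEA livers read 13.50, 13.89 and 12.41 on day 1 and 14.31, 14.35 and 14.21 on day 7. Every treated liver was above every vehicle liver, and the third DHEA animal of day 1 was the lowest of the treated ones. The changes were 3.35 (SE 0.24, limma adjusted p = 8.97e-31) and 3.18 (SE 0.21) in Wy at days 1 and 3, and 2.65, 3.20, 3.28 and 3.03 in DHEA at days 1, 3, 7 and 14.

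Ech1, the dienoyl-CoA isomerase that peroxisomes and mitochondria share, reached 12.93, 13.31 and 13.34 in Wy on day 3, against 10.04 to 10.32 in the vehicle. It read 13.61, 13.75 and 13.80 in DHEA on day 7, against 10.00 to 10.28. The change of 3.61 (SE 0.18) on day 7 of DHEA was the largest of a peroxisomal member in any group. Pex11a, which takes part in the division of peroxisomes, read 11.37, 12.39 and 12.33 in Wy on day 3, against 8.71 to 9.04 in the vehicle. On day 1 of DHEA it read 11.53, 11.94 and 10.27, again with the third animal lowest. Its change was 3.16 (SE 0.17) in Wy on day 3 and 3.36 (SE 0.17) in DHEA on day 3, and its second, dimmer probe set gave 2.31 and 3.19.

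The other peroxisomal members split. Eci2, an enoyl-CoA isomerase, Decr2, the peroxisomal dienoyl-CoA reductase, and Hsd17b4 rose by 1.42, 1.28 and 0.85 in Wy on day 3. Phyh, which starts the removal of branched phytanic acid, did not pass in any Wy or DHEA group (changes of 0.31 in Wy on day 3 and 0.07 to 0.25 in DHEA). Scp2, a thiolase and sterol carrier, read 13.64, 13.60 and 13.69 in Wy on day 3, against 13.60 to 13.80 in the vehicle, so that the groups overlapped. Its change was -0.04 (SE 0.06).

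Amacr, the racemase that prepares branched fatty acids and bile acid intermediates for peroxisomal oxidation, ran the other way. It read 11.35, 10.83 and 11.32 in Wy livers of day 3, against 11.68 to 12.07 in the vehicle. In DHEA livers of day 7 it was 10.92, 10.71 and 10.91, against 11.77 to 12.06, and on day 14 it was 11.26, 11.10 and 10.49, against 11.67, 11.66 and 12.36. No liver of these treated groups reached its vehicle range. Amacr fell by 0.77 in Wy on day 3 (SE 0.20, limma adjusted p = 0.00144) and by 0.90, 1.10 and 0.95 in DHEA on days 3, 7 and 14. It did not pass on day 1 of either compound (-0.52 and -0.56, with overlapping groups), nor on day 3 of Wy without replicate 2 (-0.61, adjusted p = 0.0616).

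The carnitine shuttle held the widest spread over time. Crat, which moves acetyl groups onto carnitine, read 10.26, 11.67 and 11.70 in Wy on day 3, against 8.04 to 8.54 in the vehicle. In DHEA it was 10.24, 10.71 and 9.12 on day 1, and on day 7 it was 12.01, 11.83 and 12.18, against 7.96 to 8.48. Its change of 3.74 (SE 0.18, limma adjusted p = 8.34e-58) on day 7 was the largest of any member in any group. Cpt1b, known as the muscle form of the entry enzyme, read 8.05, 10.86 and 10.25 in Wy on day 3, against 7.11 to 7.26. In DHEA livers it read 7.66, 8.68 and 7.16 on day 1, against 7.18, 6.93 and 7.27 in vehicle livers, which overlap. On day 7 the DHEA values were 10.39, 10.56 and 10.44, against 7.17 to 7.54. Its changes in DHEA were 0.71, 1.44, 3.19 and 2.92 at days 1, 3, 7 and 14. Beside Cpt1b the muscle marker mean was 5.44 to 5.48 in Wy on day 3, against 5.45 to 5.57 in the vehicle. In DHEA on day 7 it was 5.50 to 5.56, against 5.47 to 5.58. The part of muscle transcripts in the Cpt1b change was not tested. Cpt1a, the liver form, rose by 1.42 and 1.52 in Wy and by 1.56, 1.73 and 1.35 in DHEA from day 3 on, and on day 1 of DHEA its value of 0.76 did not pass while its second probe set rose by 1.54. Cpt2 rose by 1.83 and 1.92 in Wy and by 1.55 to 2.21 in DHEA, and Slc25a20 by 1.36 and 1.40 and by 1.05 to 1.66.

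**Figure D2:**
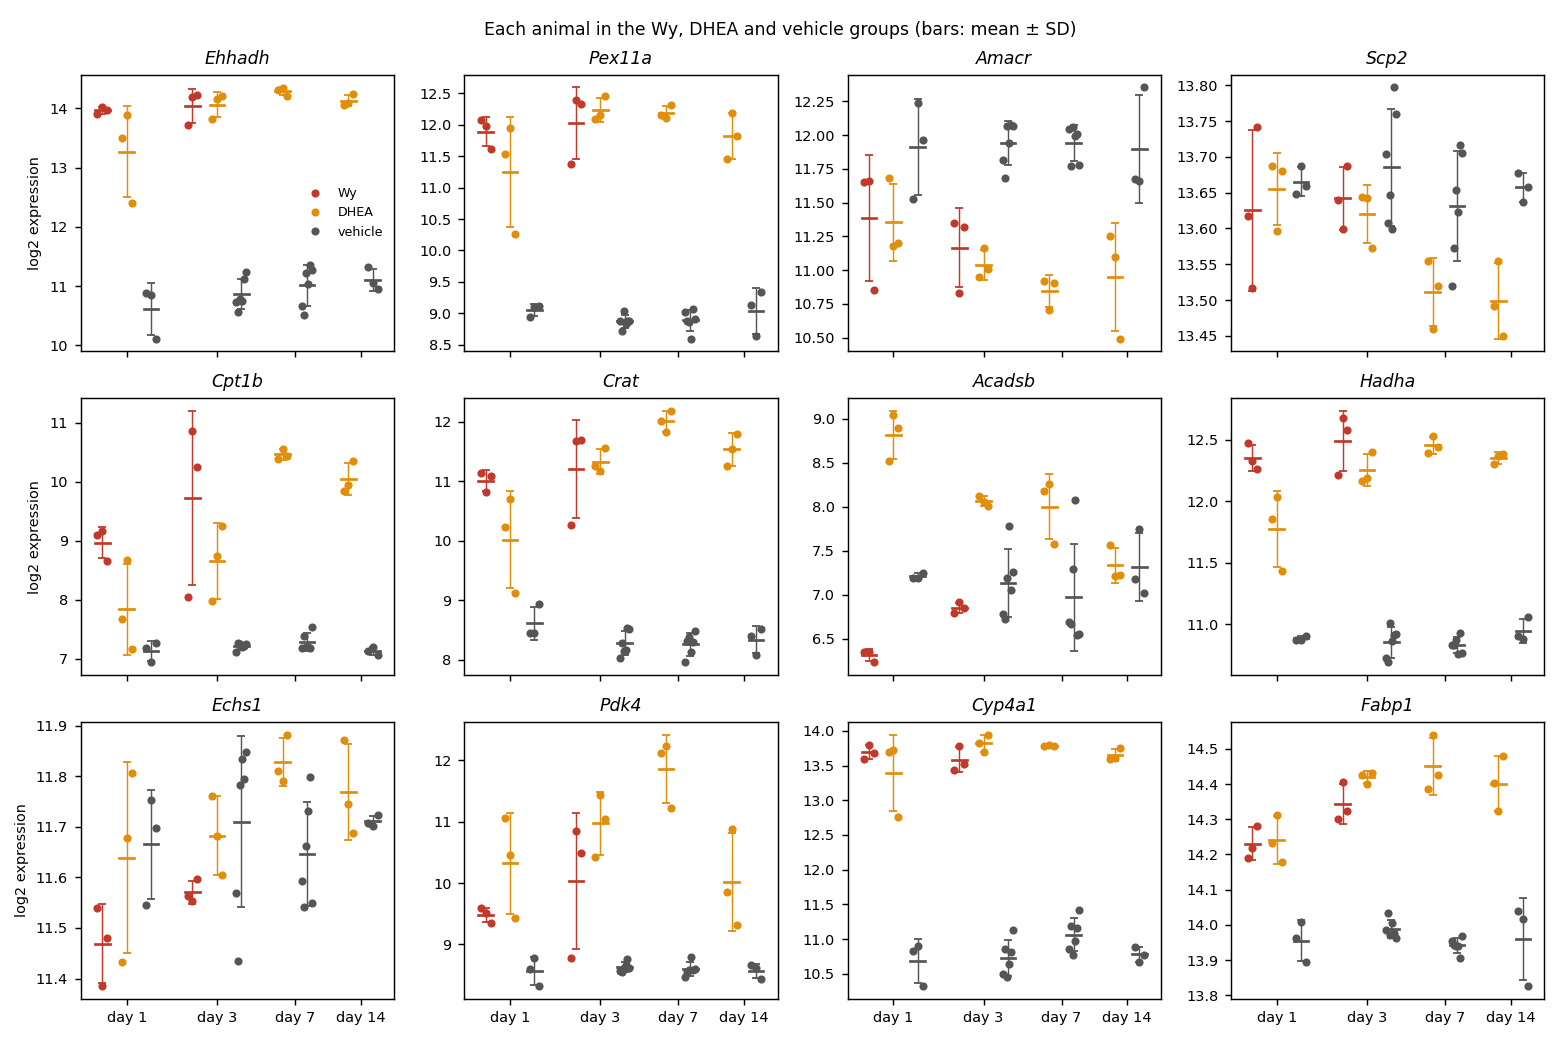
Log2 RMA signal of 12 members in each liver of Wy, DHEA and their shared CMC vehicle, by day, with the mean and SD of each group as bars. Ehhadh, Pex11a, Crat, Cyp4a1 and Hadha lie above the vehicle, Amacr below it from day 3 on, and Scp2 and Echs1 among it. On day 1 Acadsb lies above the vehicle in DHEA (8.52 to 9.05) and below it in Wy (6.23 to 6.35).

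In the mitochondrion Eci1, the isomerase for unsaturated chains, had the highest change. It read 14.12, 14.37 and 14.35 in Wy on day 3 and 14.12, 14.18 and 14.25 in DHEA on day 3, against 10.84 to 11.14 in the vehicle they share. The change in Wy was 3.31 (SE 0.20, limma adjusted p = 2.12e-39) and in DHEA 3.21 (SE 0.20). A second, dim probe set of Eci1 (mean 6.78) gave 0.09 in Wy on day 3 and was not called. Decr1, the mitochondrial dienoyl-CoA reductase, rose by 2.20 in Wy and 1.99 in DHEA on day 3. Hadhb and Hadha, the trifunctional protein, rose by 1.71 and 1.64 in Wy on day 3 and by 1.63 and 1.40 in DHEA on day 3; their genes lie head to head. The thiolase Acaa2 rose by 1.33 in Wy and 0.83 in DHEA on day 3. The straight-chain dehydrogenases rose in Wy on day 3 by 1.19 (Acadvl, for very long chains), 1.13 (Acadl, long), 0.80 (Acadm, medium) and 0.75 (Acads, short). Etfdh, which hands their electrons to the respiratory chain, rose by 0.76, and Hadh, the dehydrogenase of shorter chains, by 0.66. Echs1, the short-chain hydratase, did not pass in any Wy or DHEA group (-0.20 to 0.18).

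Acadsb, the dehydrogenase of short branched chains, which belongs to isoleucine breakdown, differed in direction between the compounds. In Wy on day 1 it read 6.35, 6.35 and 6.23, against 7.19, 7.19 and 7.25 in the vehicle, and fell by 0.90 (SE 0.27, limma adjusted p = 0.01). In DHEA on day 1 it read 8.52, 9.05 and 8.89 against the same vehicle livers, and rose by 1.61 (SE 0.27, adjusted p = 6.94e-07). On day 3 Wy read 6.80, 6.91 and 6.84 and DHEA 8.12, 8.05 and 8.00, against 6.73 to 7.78 in the vehicle, with changes of -0.28, which did not pass, and 0.93. The DHEA values of day 7 (8.17, 8.26 and 7.57) overlapped the vehicle, where 1 liver read 8.08, and on day 14 the change was 0.02.

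Of the fat handling genes, Cyp4a1, the omega-hydroxylase used as a marker of PPARα activation, read 13.60, 13.80 and 13.67 in Wy on day 1 and 13.70, 13.72 and 12.76 in DHEA on day 1, against 10.83, 10.90 and 10.32 in the vehicle. It rose by 3.01 and 2.85 in Wy, and by 2.71, 3.09, 2.73 and 2.87 in DHEA. Pdk4, the kinase that shuts carbohydrate out of the mitochondrion, read 12.12, 12.24 and 11.21 in DHEA on day 7, against 8.48 to 8.80 in the vehicle. In Wy on day 3 its values were 8.77, 10.85 and 10.48, against 8.55 to 8.77, so that the first liver stood at the top of the vehicle range. Pdk4 rose by 0.91 and 1.40 in Wy and by 1.75, 2.34, 3.25 and 1.44 in DHEA. Plin2, which coats lipid droplets, rose by 1.14 and 1.20 in Wy and by 0.73 to 1.37 in DHEA. Its second, dimmer probe set (mean 7.22) gave 0.29 and 0.21 in Wy and -0.31 to 0.16 in DHEA and was called in none of these groups. Angptl4, a secreted inhibitor of lipoprotein lipase, rose by 1.23 in Wy on day 3, a call lost without replicate 2 (1.13, adjusted p = 0.099) or replicate 3 (1.08, adjusted p = 0.109). It rose by 1.38 and 1.08 in DHEA on days 3 and 7. The aldehyde dehydrogenase Aldh3a2 and Acsl1 rose by 0.67 and 0.63 in Wy on day 3. The Acsl1 calls rest on its brighter probe set (mean 12.73). The other, nearly as bright (12.72), gave 0.25 and 0.34 in Wy and 0.29 to 0.40 in DHEA and was called in none of these groups. Fabp1 stayed below the fold limit in all 6 groups (0.28 to 0.51) although its adjusted p ranged between 5.29e-09 and 0.0184. The hepatocyte marker mean was lower beside these rises, by 0.32 and 0.29 in Wy and by 0.01 to 0.32 in DHEA, and on day 14 of DHEA the macrophage marker mean was 0.80 lower with 5 of 6 genes called. It was 0.38 lower on day 3 of DHEA, with 3 of 6 called, but 0.35 higher on day 1. Both red cell markers were lower in DHEA on days 3 and 7, by 0.91 and 1.42 on average, and 1 of 2 was in Wy on day 3. On day 14 of DHEA 2 of 4 endothelial markers were lower. Their part in the changes was not tested.

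Averaged over the 34 members, the third DHEA liver of day 1 was 0.68 above its vehicle mean and the other two 1.06 and 1.25 above it, and the first Wy liver of day 3 was 1.03 above and the other two 1.54 and 1.49. The direct difference of DHEA minus Wy, both over the same vehicle, was called for 6 members on day 1 (1.88% of all probe sets). Acadsb was 2.51 higher in DHEA (SE 0.27) and Pdk4 0.84 higher, while Cpt1b, Crat, Ehhadh and Pex11a were 1.14, 0.99, 0.70 and 0.64 lower. Without the third DHEA liver 3 calls were left, with Ehhadh, Pex11a and Crat lost, and in a fit on these groups' own arrays 1 was left. Without the Wy array with pancreas transcripts Ehhadh lost its call and Hadha gained one. On day 3 the difference was called for 3 members (0.977% of all probe sets): Acadsb 1.21 and Pdk4 0.93 higher and Cpt1b 1.06 lower in DHEA. A difference that did not pass does not show that the compounds acted alike.

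From day 1 to day 14 the DHEA effect grew by 2.22 for Cpt1b and 1.79 for Crat and shrank by 1.59 for Acadsb, and no other member passed (2.35% of all probe sets did). Without replicate 2 of DHEA day 1 the number was 5. From day 1 to day 3 of Wy no member passed (1.10% of all probe sets), while without replicate 1 of Wy day 3, the low liver above, Cpt1b, Crat and Pdk4 did, and 1 member did without replicate 2 of Wy day 1 or of its vehicle.

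PBO, an inhibitor of cytochrome P450 used with insecticides, raised a smaller number of the same list. On day 1, 13 members rose and 1 fell (6.79% of all probe sets were called), with a median of 0.48, and on day 3, 10 rose and 2 fell (2.56%), with a median of 0.37. Eci1 read 13.42, 13.34 and 13.38 in PBO on day 1, against 11.02, 11.37, 11.23 and 11.31 in its vehicle. On day 3 it read 13.11, 13.06 and 12.45, against 11.18, 10.88, 11.29 and 10.94. Its changes were 2.15 (SE 0.22, limma adjusted p = 2.72e-17) and 1.80 (SE 0.22). Ech1 rose by 1.88, Acaa2 by 1.42, Ehhadh by 1.24, Cyp4a1 by 1.22, Decr1 and Cpt2 by 1.19 and Pex11a by 1.08 on day 1. Decr1, Pex11a, Ech1 and Crat rose by 1.26, 1.23, 1.18 and 1.11 on day 3, and Ehhadh, Cpt2 and Cyp4a1 by 0.96, 0.79 and 0.77. Cyp4a1 read 12.45, 12.26 and 12.27 in PBO on day 1, against 11.25, 11.37, 11.21 and 10.58 in the vehicle. Amacr fell in PBO too, to 10.95, 10.73 and 11.19 on day 3, against 12.20, 12.13, 11.90 and 11.66 (-1.02, SE 0.21), as did Phyh, to 12.24, 12.38 and 12.53, against 12.94 to 13.09 (-0.64). The hepatocyte marker mean was 0.29 and 0.28 lower in PBO on days 1 and 3, with 2 of 7 genes called lower on each day, and on day 3 the macrophage mean was 0.42 lower with 1 of 6 called. Their part in these changes was not tested. The effect of day 3 was lower than that of day 1 for Pdk4 (-0.85) and Plin2 (-0.75), with 2.50% of all probe sets called, but no member passed without replicate 1 of PBO day 1 or replicate 2 or 3 of PBO day 3 or replicate 2 of the vehicle of day 1, and 1 passed without replicate 3 of PBO day 1, replicate 3 of that vehicle or replicate 1 or 2 of the vehicle of day 3.

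ETH, an analogue of methionine, moved the members both ways and changed direction with time. On day 1, 15 members fell and 1 rose (8.96% of all probe sets were called) and the median change was -0.47. On day 3, 11 rose and 6 fell (12.9%), with a median of 0.14. On day 7, 2 rose (4.03%), and on day 14, 3 rose and 4 fell (7.29%). With the replicate number as a block, 14 members fell on day 1, since Hadhb (-0.66) lost its call.

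The falls of day 1 lay in the peroxisome (6 of 9 members) and the mitochondrion (8 of 13), and none of the 5 carnitine shuttle members was called. Ehhadh read 9.54, 8.52 and 8.79 in ETH on day 1, against 10.91, 10.91, 10.93 and 10.61 in the vehicle, and fell by 1.89 (SE 0.23, limma adjusted p = 1.22e-13). Phyh read 11.27, 10.39 and 11.67, against 12.93, 12.82, 12.89 and 12.97, and fell by 1.79 (SE 0.15). Both genes had every treated liver below every vehicle liver. Decr1, Decr2, Ech1 and Eci1 fell by 1.37, 1.36, 1.29 and 1.28, Echs1 by 1.25 and Etfdh by 1.21. Echs1 read 10.94, 9.54 and 10.04, against 11.60, 10.97, 11.34 and 11.80. The second ETH liver had the lowest mean over members (-0.95, against -0.45 and -0.35 in the other two). Pex11a was the one member that rose on day 1 (0.60),.

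On day 3 of ETH, Cyp4a1 read 13.32, 13.50 and 13.64, against 10.88, 10.80, 10.72 and 10.81 in the vehicle, and rose by 2.68 (SE 0.21, limma adjusted p = 1.1e-27). Pex11a, Cpt1a, Angptl4, Crat, Plin2, Eci1 and Ech1 rose by 1.69, 1.67, 1.60, 1.58, 1.46, 1.45 and 1.14. Eci1, which had read 9.11, 9.77 and 10.98 in ETH on day 1, read 12.42, 12.61 and 12.53 on day 3, against 11.02 to 11.37 and 10.88 to 11.29 in the vehicles of the same days. Phyh and Echs1 stayed down: Phyh read 11.89, 10.86 and 11.62, against 12.94 to 13.09 (-1.56), and Echs1 read 10.34, 10.50 and 10.24, against 11.63 to 11.78 (-1.37, SE 0.10). Acadsb, Etfdh, Fabp1 and Decr2 fell by 1.09, 0.97, 0.91 and 0.79. Fabp1 read 13.24, 12.92 and 12.97, against 13.87 to 14.03, and this was its largest fall in the study.

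Cyp4a1 remained above the vehicle to the end, at 12.91, 12.42 and 12.12 in ETH on day 7, against 10.96, 11.03 and 11.02, and at 12.25, 12.13 and 12.49 on day 14, against 11.19, 11.07 and 11.30. The changes were 1.48 and 1.10. Crat rose by 0.85 on day 7, with overlapping groups, and by 1.05 on day 14, where Plin2 rose by 0.67. Decr2, Etfdh, Echs1 and Amacr fell by 0.92, 0.82, 0.68 and 0.59 on day 14. The effect of day 14 exceeded that of day 1 for 11 members (2.12 for Ehhadh, 1.37 for Phyh, 1.09 each for Eci1 and Decr1, 1.06 for Ech1) and was lower for Pex11a (-0.90), where 7.26% of all probe sets were called. Without the second ETH liver of day 1 the number called was 7, and in a fit on these groups' own arrays it was 4. Macrophage markers were higher beside these changes: their mean over 6 genes was 0.67, 1.26, 0.83 and 0.95 above the vehicle at days 1, 3, 7 and 14, with 3, 5, 5 and 5 genes called, and on day 3 it was 10.99 to 11.03 in ETH, against 9.57 to 9.89. The hepatocyte mean was 0.30 and 0.18 lower on days 1 and 3. The red cell mean was 1.17 and 0.90 lower on days 7 and 14, with 2 and 1 of 2 genes called. On day 14 the bile duct mean was 0.46 higher, with 2 of 6 genes called. Their part in the changes was not tested.

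Aap, a painkiller whose reactive product injures the liver at high dose, acted within hours. At 6 hours 9 members rose and 1 fell (5.26% of all probe sets were called), and at 12 hours 4 rose (1.92%). At 24 hours 4 rose and 8 fell (10.8%), and at 48 hours 3 rose and 6 fell (10.0%). The median change was 0.26, 0.14, -0.14 and -0.35 in that order. Without the third liver of 6 hours, the one with muscle transcripts, 5 members rose and 1 fell at 6 hours, and Ech1, Slc25a20, Eci1 and Angptl4 lost their calls.

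Pex11a read 10.77, 10.74 and 10.66 in Aap at 6 hours, against 8.68, 8.36 and 8.64 in saline, and rose by 2.16 (SE 0.20, limma adjusted p = 2.65e-20). At 12 hours it read 8.60, 9.60 and 8.66, against 8.10, 8.09 and 7.68, and at 48 hours 8.58, 8.64 and 8.42, against 9.03, 9.05 and 9.21, where the change of -0.55 did not reach the fold limit. Its order against saline had thus turned round between the first and last times. At 6 hours Angptl4, Pdk4, Cyp4a1, Cpt2 and Crat rose by 1.45, 1.36, 1.22, 1.19 and 1.04, and Eci1 and Slc25a20 by 0.70 and 0.63. Pdk4 read 9.44, 9.20 and 10.49 in Aap, against 8.19, 8.37 and 8.47, with the muscle-containing array highest, and its change was 0.97 without that array. Amacr fell at 6 hours, reading 10.71, 11.41 and 11.09, against 12.40, 12.33 and 11.83 in saline (-1.12, SE 0.23). Plin2, 12.46 in 1 liver and 11.12 and 11.18 in the other two at 12 hours, against 10.16, 10.63 and 10.31 in saline, rose by 1.22, and Pex11a, Cyp4a1 and Ech1 rose by 0.99, 0.94 and 0.79 at that time.

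At 24 hours Ehhadh read 9.19, 9.54 and 9.52 in Aap, against 10.70, 10.81 and 11.13 in saline, and fell by 1.47 (SE 0.24, limma adjusted p = 6.72e-08), while Ech1 and Eci1 rose by 1.23 each, Cyp4a1 by 0.94 and Cpt1a by 0.87. Hadh read 11.79, 11.93 and 11.86, against 12.62, 12.67 and 12.63, and fell by 0.78 (SE 0.08). Angptl4, Acadsb, Acsl1, Amacr, Fabp1 and Pdk4 fell by 1.35, 1.19, 0.96, 0.74, 0.70 and 0.67. At 48 hours Cpt1a read 11.33, 11.47 and 11.61, against 9.83, 10.06 and 10.51, and rose by 1.34, beside Eci1 and Ech1 (0.82 and 0.76). Acsl1 read 11.78, 11.51 and 12.04, against 12.77, 12.82 and 12.87, and fell by 1.04. Amacr read 10.59, 10.99 and 10.14, against 11.81, 12.22 and 11.93, and fell by 1.42 (SE 0.23), its largest fall in any group. Acadsb, Ehhadh, Pdk4 and Acadm fell by 1.23, 0.96, 0.84 and 0.66. The effect at 48 hours was lower than at 6 hours for 14 members, with 12.4% of all probe sets called: Pex11a by 2.71, Angptl4 by 2.43, Pdk4 by 2.20, Ehhadh by 1.30, Acadsb by 1.27, Cyp4a1 by 1.22 and 8 others by 0.67 to 0.90. Without the array with muscle transcripts Cpt1b was no longer among the 14 and Decr2 was. The saline groups themselves differed between hours (Plin2 averaged 12.15, 10.37, 12.22 and 12.23 at 6, 12, 24 and 48 hours, Cpt1a 11.37, 11.35, 10.27 and 10.13), and their part in the change over time was not tested. At 48 hours the red cell marker mean was 8.76 to 9.19 in Aap, against 11.40 to 12.11 in saline, and 3 of 7 hepatocyte markers were lower, and their part was not tested either.

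**Figure D3:**
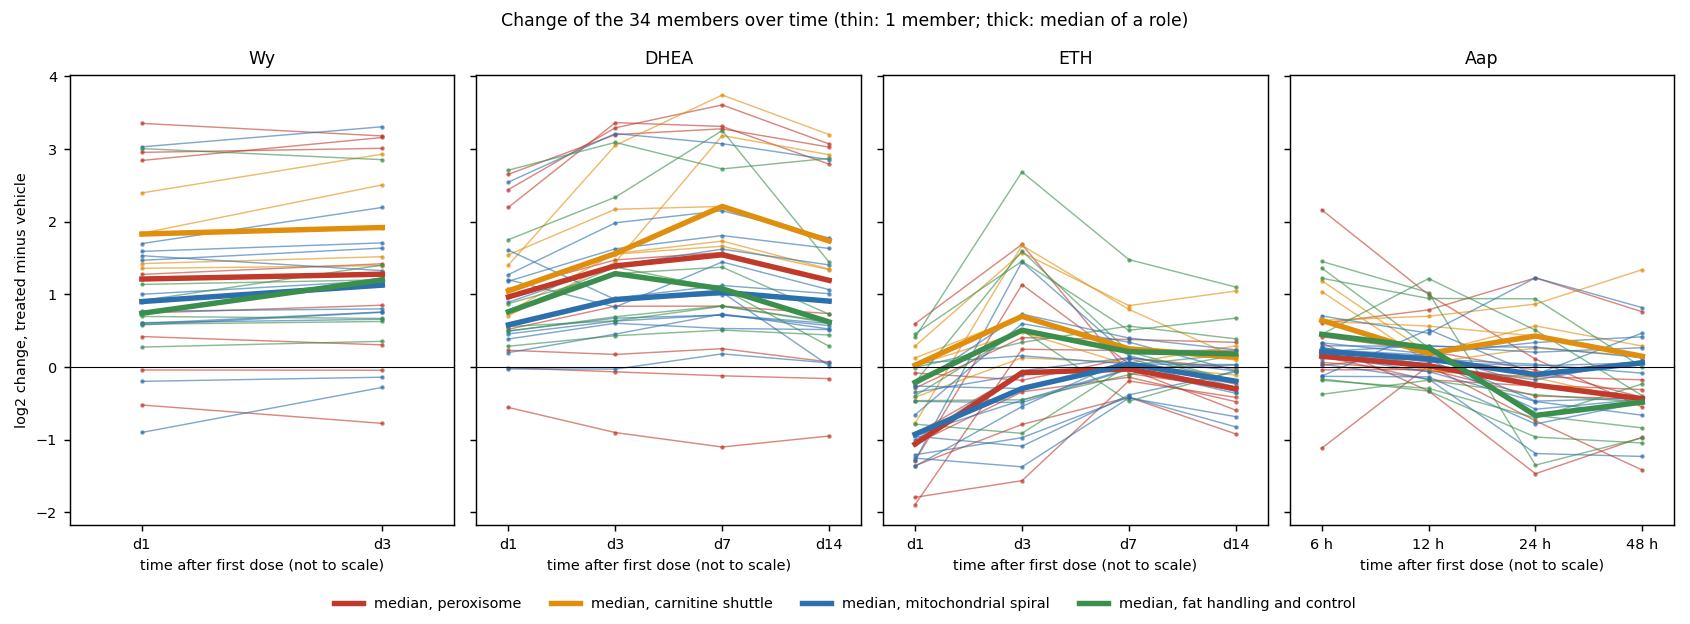
Log2 change against vehicle of each measured member (thin lines) and the median of each role (thick lines) over time in Wy, DHEA, ETH and Aap. Role medians stay above 0 in Wy and DHEA at every time, start below 0 for the peroxisomal and mitochondrial roles in ETH, and decline with the hours in Aap for the peroxisomal members (0.15 at 6 hours, -0.44 at 48 hours).

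CPA, a steroid antiandrogen, lowered a few members, above all Cyp4a1 and Acadsb. On days 1, 7 and 14 it called 5, 2 and 4 members, all lower, and on day 3 it called 3 higher and 3 lower (3.98%, 1.57%, 2.34% and 2.82% of all probe sets). The 3 that rose were Eci1, Ech1 and Cpt2, by 0.81, 0.63 and 0.60. On day 1 Ehhadh read 9.20, 9.01 and 8.60 in CPA, against 10.81, 11.29 and 10.94 in corn oil, and fell by 2.07 (SE 0.24, limma adjusted p = 3.5e-13), the largest fall of a peroxisomal member. Angptl4 read 9.52, 9.11 and 8.92, against 10.70, 11.46 and 11.29, and fell by 1.97, and Pdk4 fell by 0.75. Angptl4 fell again on day 14, by 1.61, and Amacr fell by 0.75 on day 3 and 0.67 on day 14. Cyp4a1 fell at each time, by 1.15, 0.65, 1.22 and 1.31 on days 1, 3, 7 and 14. On day 14 it read 9.41, 9.59 and 9.69, against 10.59, 11.12 and 10.90. Acadsb fell at each time too, by 1.24, 1.24, 1.06 and 0.83, and on day 3 read 7.52, 7.41 and 7.57, against 8.98, 8.42 and 8.81. The effect on Ehhadh was 1.63 weaker on day 14 than on day 1. The hepatocyte mean was 0.15 to 0.35 lower and the macrophage mean 0.37 to 0.63 lower in CPA, and their part was not tested.

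DES, a synthetic oestrogen, called 3 members lower on day 1 (3.42% of all probe sets) and 3 higher and 3 lower on day 3 (3.23%). Phyh read 12.05 and 11.94 in the 2 DES livers of day 1 and 12.03, 11.77 and 11.93 on day 3, against 12.82 to 12.97 and 12.94 to 13.09 in the vehicles, and fell by 0.91 and 1.11. Ehhadh fell by 1.24 on day 1 (9.23 and 9.97, against 10.61 to 10.93), with Cyp4a1 (-0.92). Amacr fell on day 3, at 10.64, 10.88 and 10.62, against 11.66 to 12.20 (-1.26, SE 0.21), and Aldh3a2 fell by 0.60, while Pex11a, Ech1 and Eci1 rose by 0.88, 0.77 and 0.65. Without replicate 2 of DES day 3, 3 members were called on that day.

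CIDB, an azo dye, called 3 members on day 3 (2.20% of all probe sets), Acadsb higher (0.90) and Phyh and Ehhadh lower (-0.90 and -0.82), and 5 on day 7 (3.99%). On day 7 Ech1 read 11.48, 11.46 and 12.04, against 10.23, 10.36 and 10.40 in corn oil, and rose by 1.33, with Eci1, Crat and Cyp4a1 (1.14, 0.98 and 0.67), while Amacr fell by 0.85. The effect on day 7 was above that on day 3 by 1.62 for Ech1 and 1.20 for Cyp4a1. Without replicate 2 of the day 7 vehicle 3 members were called. Red cell markers were far lower beside this, at a mean of 7.85 to 8.24 in CIDB on day 7, against 11.45 to 12.12, and their part was not tested.

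AB1, a mould toxin, called 3 members on day 3 (2.17% of all probe sets) and 5 on day 7 (3.84%). Crat rose by 0.77 and 1.11, reading 9.82, 8.70 and 9.60 in AB1 on day 7, against 7.96 to 8.48 in the vehicle. Acsl1 fell by 0.79 and 0.80, reading 11.58, 12.43 and 11.97 on day 3, against 12.63 to 12.90, and 12.01, 12.58 and 11.20 on day 7, against 12.57 to 12.85, where the groups just overlapped. Ehhadh fell on day 3 (-0.94), and on day 7 Eci1, Cyp4a1 and Hadhb rose by 0.85, 0.80 and 0.60. Without replicate 1 of AB1 day 7, 2 members were called on that day. Beside these changes, on day 7 the bile duct marker mean was 1.17 higher with 5 of 6 genes called (7.01 to 8.06 in AB1, against 6.42 to 6.55 in the vehicle), 4 of 6 macrophage markers were called higher and 1 lower, and both red cell markers were lower, by 1.17 on average. Their part was not tested. DMN, a nitrosamine, called none on day 3 and 3 on day 7, all lower (1.30% of all probe sets): Cyp4a1 at 10.52, 10.26 and 10.36, against 11.13, 11.24 and 11.42 (-0.88), Amacr (-0.75) and Pex11a (-0.63). On day 7 of DMN the macrophage marker mean was 0.50 higher, with 2 of 6 genes called higher and 1 lower. There 1 of 7 hepatocyte and 1 of 4 endothelial markers were called lower, and the part of these markers was not tested.

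**Figure D4:**
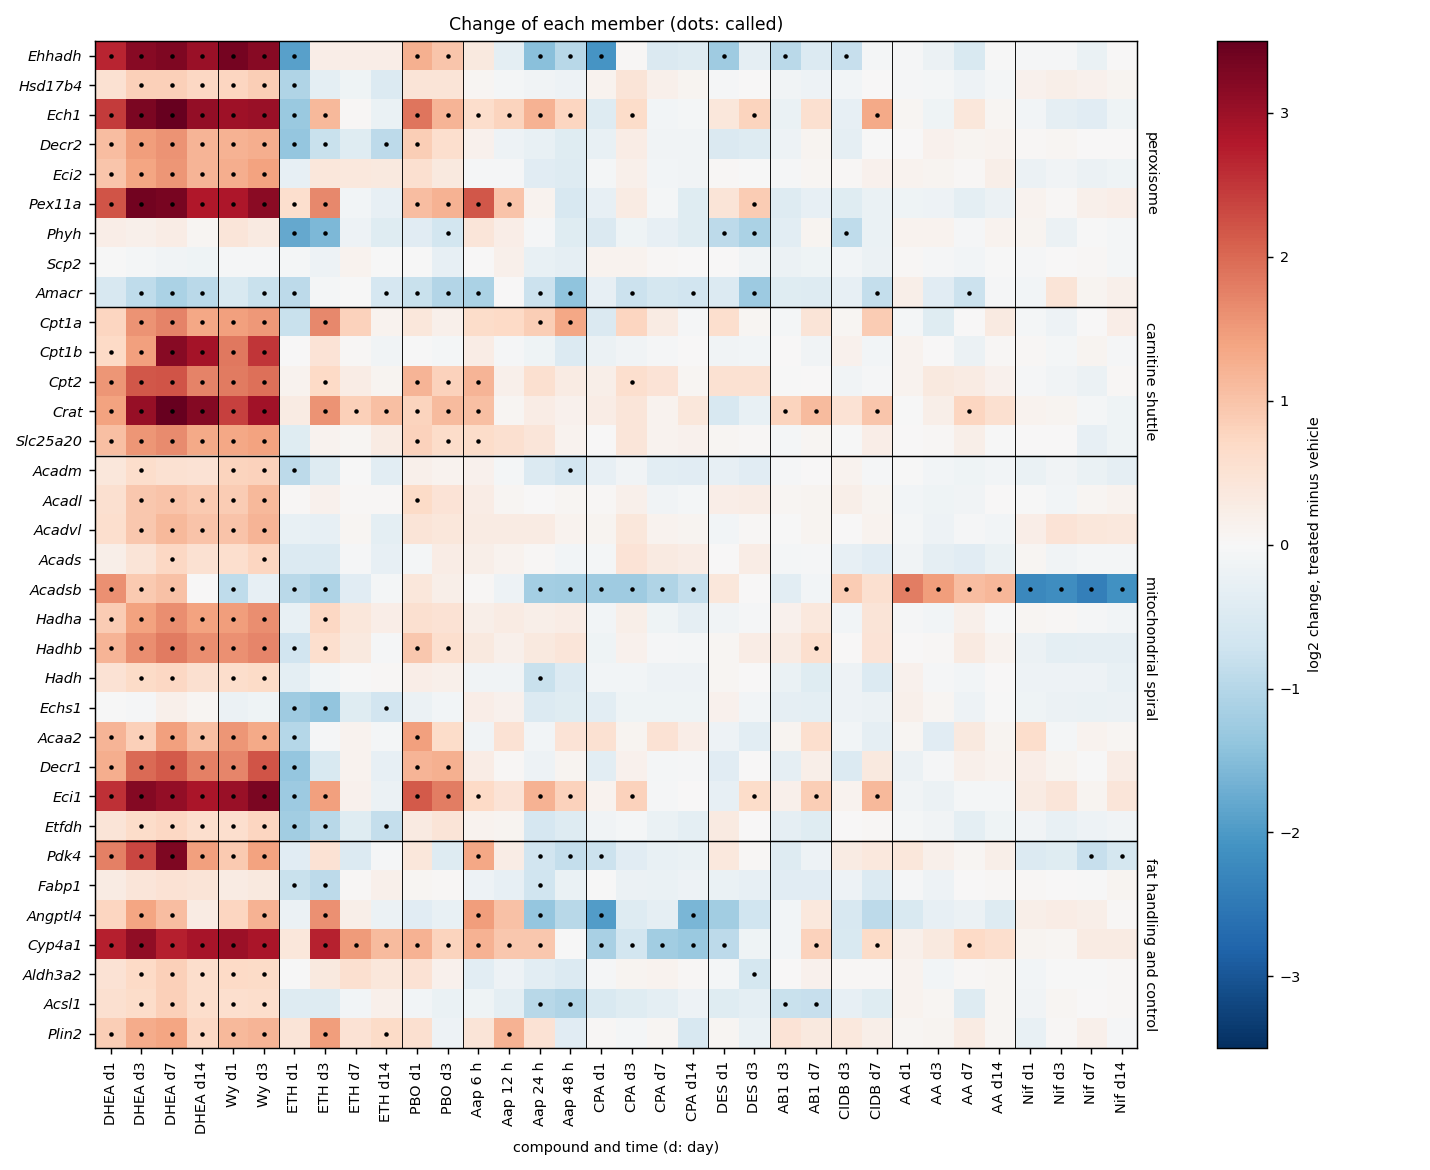
Log2 change against vehicle of the 34 members, grouped by role (rows), in all groups of 11 compounds (columns), with a dot where a member was called. Red (higher) fills Wy and DHEA apart from Amacr, Scp2, Echs1 and Phyh and from Acadsb in Wy, and blue (lower) marks Phyh and Echs1 in ETH, Acadsb in Nif and CPA and Amacr across compounds.

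Acadsb also moved where few other members did. Nif, a calcium channel blocker, lowered it at every time and called no other member but Pdk4. Over all treated groups 1.75% of all probe sets were called, and the share in Nif alone is not given here. It read 6.21, 6.32 and 6.30 in Nif on day 1, against 8.60, 8.49 and 8.50 in the vehicle, and 5.60, 5.81 and 6.01 on day 7, against 8.44, 8.04 and 8.12. On day 14 the values were 6.08, 5.49 and 6.21, against 8.38, 8.42 and 7.32. No Nif liver reached the vehicle range at any time. Acadsb fell by 2.25, 2.17, 2.39 and 2.11 on days 1, 3, 7 and 14 (SE 0.27 each, largest limma adjusted p = 1.06e-10), the largest falls of any member in the study. Pdk4 fell by 0.82 on day 7 (8.27, 8.03 and 8.17, against 9.28, 8.79 and 8.84), and by 0.60 on day 14, where it lost its call without any 1 of 5 of the 6 arrays.

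AA, a small amide, raised Acadsb at every time: it read 8.80, 9.41 and 8.79 in AA on day 1, against 7.19, 7.19 and 7.25 in the vehicle, and 8.59, 8.39 and 8.46 on day 14, against 7.18, 7.75 and 7.01. The rises were 1.79, 1.47, 1.08 and 1.17 on days 1, 3, 7 and 14, with overlapping groups on day 7 only. On day 7 AA also raised Crat (0.74) and Cyp4a1 (0.69) and lowered Amacr (-0.74), where 4.95% of all probe sets were called. The shares of days 1, 3 and 14 of AA are not given here. In the AA livers of day 7 the macrophage marker mean was 0.98 higher with 4 of 6 genes called (10.4 to 10.8 in AA, against 9.28 to 10.0 in the vehicle), and both red cell markers were lower, by 2.04 on average. Their part was not tested. Acadsb was also the most variable member among vehicle livers, from 5.65 to 9.09 over 128 arrays (SD 0.70, within groups 0.41), with group means from 6.64 to 8.93, whereas Scp2 and Fabp1 had SDs of 0.08 and 0.09. Its rises and falls can thus be set only against the vehicle of the same label. Over the 98 groups it was called higher in 8 and lower in 13.

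Rises of 1 or 2 members were scattered over several further compounds. They stood beside 1.75% of all probe sets called over all treated groups, and are not read as a response of the list. DCB raised Eci1 on days 1, 3 and 14 by 1.07, 1.66 and 1.24, reading 12.56, 12.54 and 12.12 in DCB on day 3, against 11.33, 10.58 and 10.33 in corn oil, and Ehhadh on day 3 by 1.09. 2-NF raised Eci1 on day 3 by 1.43 (12.54, 12.37 and 12.50, against 11.02, 11.07 and 11.03), where Amacr fell by 0.74, and on day 7 Amacr and Pex11a fell by 0.72 and 0.70. Ibup, a non-steroidal anti-inflammatory drug, raised Cyp4a1 on day 1 by 0.96 and on day 14 by 1.27, reading 12.06, 11.97 and 11.93, against 10.72, 10.50 and 10.95. No member was called in Ibup on days 3 and 7, and on day 14 a second member was called without replicate 2 of the vehicle. MPy raised Cpt2 on day 3 (0.68) and Crat and Hadhb on day 7 (0.81 and 0.68), and NNK raised Crat on day 7 (0.61). Praz raised Eci1 and Cyp4a1 on day 1 by 1.02 and 0.95, with Eci1 at 12.35, 12.30 and 11.27, against 10.68, 10.88 and 11.30, which overlap, and neither was called without the first liver, which held pancreas transcripts.

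Falls of 1 or 2 members were as scattered, beside the same 1.75% over all treated groups, and are not read as a response of the list either. Cyp4a1 fell in NNM on day 7 (10.02, 9.93 and 9.70, against 10.64 to 11.10, change -1.04) and in NPip on days 7 and 14 (-0.86 and -0.78), the day 7 call being lost without the liver with muscle transcripts. Phyh fell in PB on days 1 and 3 (-0.68 and -0.79), reading 12.00, 12.01 and 12.06 on day 3, against 13.04, 12.48 and 12.91. 3-MC lowered Ehhadh on day 1 (-0.93), Pex11a on day 7 (-0.69) and Acaa2 on day 14 (-1.22, at 11.12, 12.16 and 11.49, against 12.64, 13.02 and 12.79). MDA lowered Fabp1 and Amacr on day 14 (-0.77 and -0.71), and the effect on Fabp1 was 0.73 lower than on day 1. Over all 30 compounds, which had at least 2 times each, a member was called for change over time in 7.

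Across the 98 groups the members had their own profiles. Of all comparisons of a probe set with a group, 1.75% were called. Eci1 was called higher in 21 groups of 12 compounds and lower in 1, Cyp4a1 higher in 20 groups and lower in 9, and Crat higher in 18 groups of 10 compounds and never lower. Ech1, Pex11a and Cpt2 were higher in 16, 13 and 12 groups. Ehhadh was nearly balanced, higher in 9 groups of 4 compounds and lower in 8 of 7 compounds. Cpt1b and Eci2 were called in 6 groups each, all of Wy and DHEA, and Acads in 2. At the other end Amacr was called lower in 20 groups of 12 compounds and never higher, Phyh lower in 8 groups of 5, Fabp1 in 4 and Echs1 in 3, all of ETH. Scp2 was called in none, with changes of -0.31 to 0.20.

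**Figure D5:**
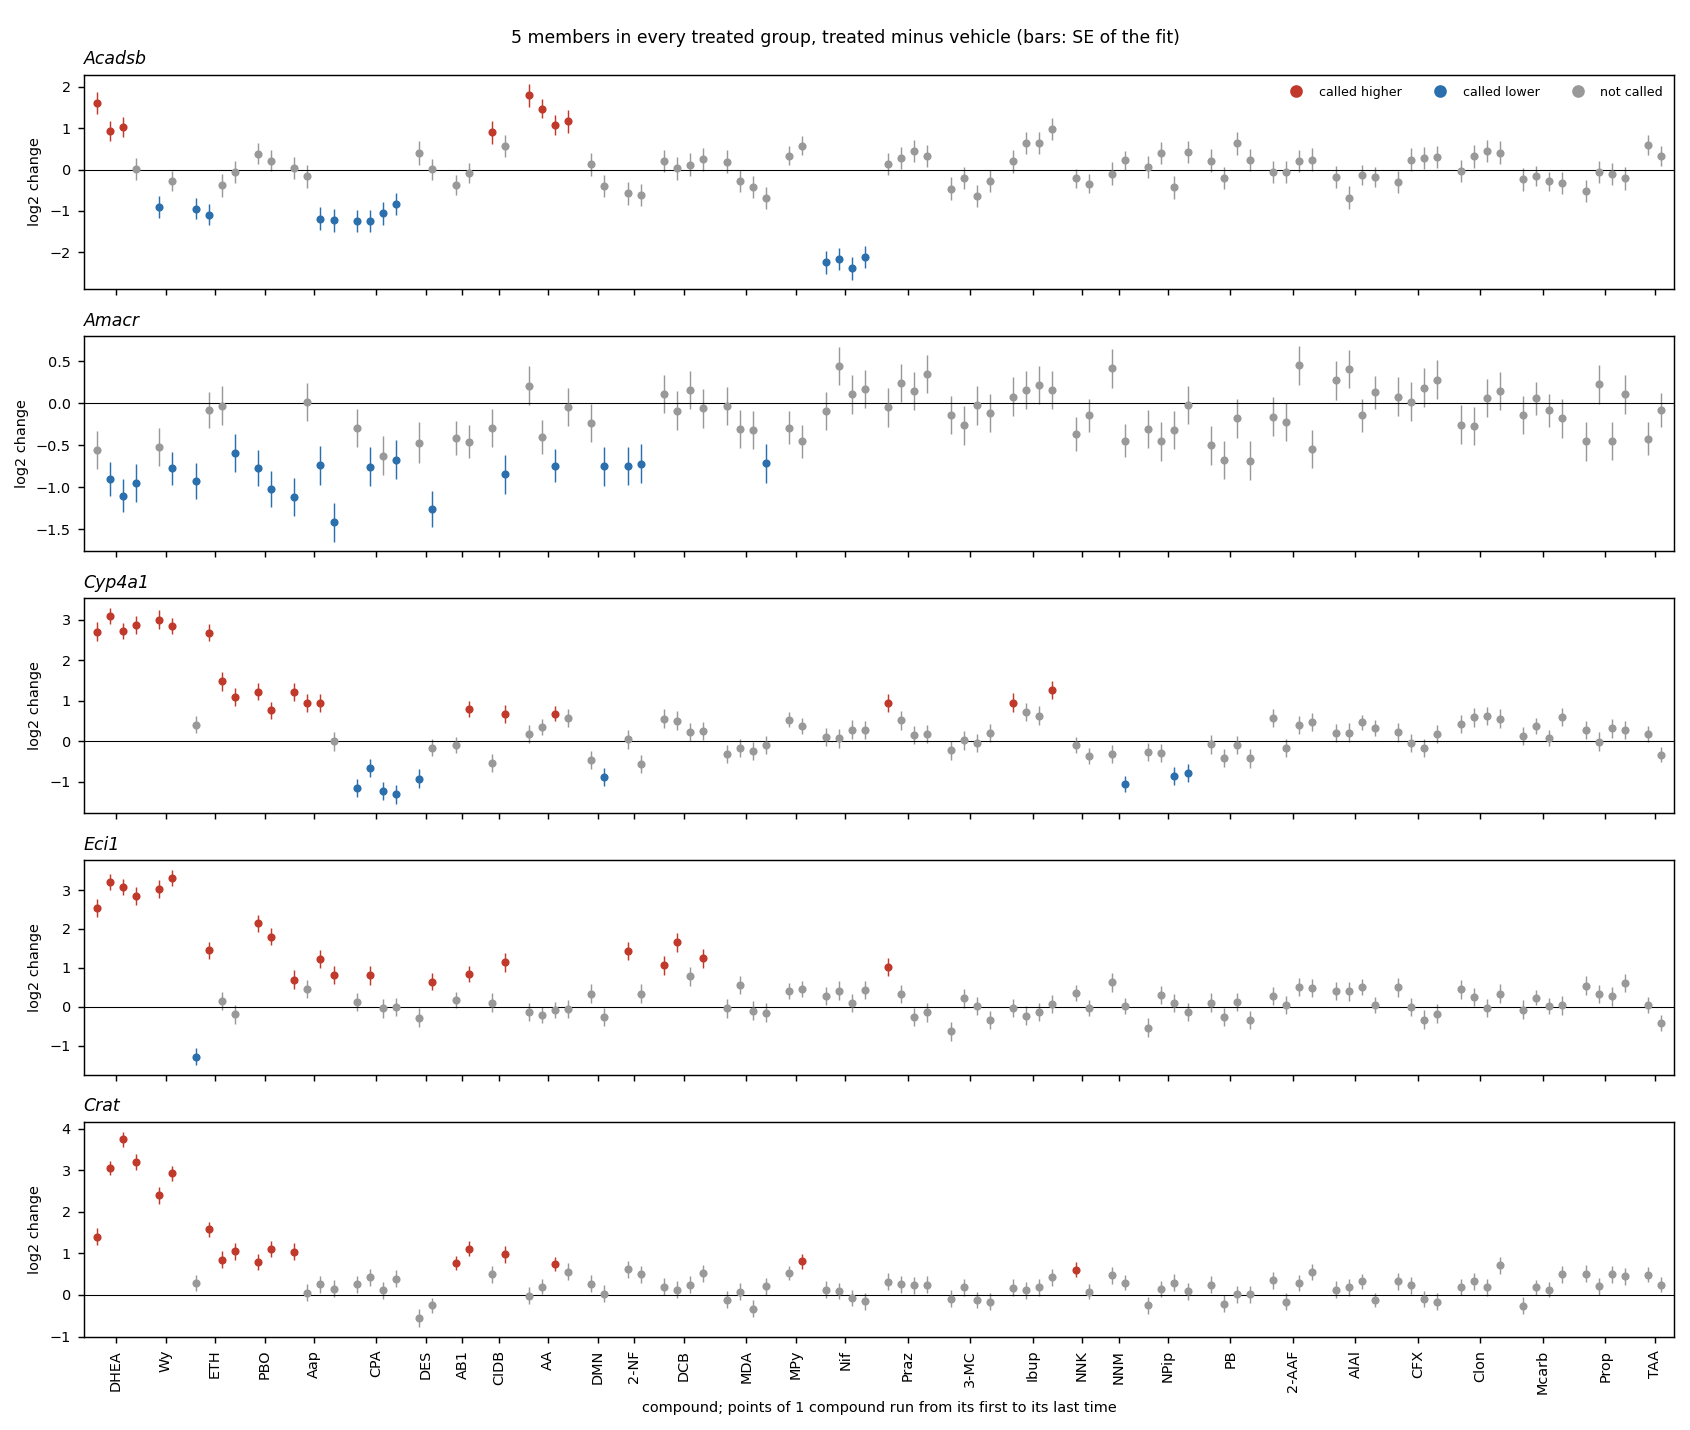
Log2 change against vehicle, with its standard error, of Acadsb, Amacr, Cyp4a1, Eci1 and Crat in all 98 treated groups, ordered by compound. Amacr points lie at or below 0 wherever called, Crat points at or above 0, and Acadsb runs from -2.39 in Nif to 1.79 in AA.

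Beyond the members, 4 of 6 listed genes of ketone body formation and use were measured on a probe set of their own, and the others were not read. Acat1, the thiolase that also makes ketone precursors, rose by 1.76 in Wy on day 3 and 1.62 in DHEA on day 7. Slc16a1, a carrier of ketones and lactate, rose by 0.84 and 0.75 in Wy on days 1 and 3 and gave 0.46 in DHEA on day 7, which did not pass. Bdh1, which makes hydroxybutyrate, and Oxct1, which uses ketones outside the liver, did not pass in these groups (0.24 and 0.04 in Wy on day 3). Bdh1 fell by 1.46 and 2.08 in ETH on days 1 and 3, by 0.93, 1.10, 2.14 and 1.07 in Aap at 6, 12, 24 and 48 hours, by 0.71 in CIDB on day 7, by 0.82 in CPA on day 14, by 0.60 in DES on day 3 and by 0.65 in TAA on day 3, where no member was called. Acat1 fell by 0.67 in ETH on day 3, and Slc16a1 by 0.75 and 0.70 in CPA on days 3 and 14. Acat1 was 0.83 lower in DHEA than in Wy on day 1.

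The wider peroxisomal list (21 measured genes outside the members) had 6 higher and 1 lower in Wy on day 3 and 8 and 1 in DHEA on day 7, with medians of 0.16 and 0.29. For this and the following lists, 2.44% of all probe sets were higher and 1.41% lower in Wy on day 3. In DHEA on day 7 these shares were 3.32% and 2.58%. The acyl-CoA thioesterase Acot4 rose by 2.97 and 3.38 in Wy on day 3 and DHEA on day 7, the carnitine transferase Crot by 1.88 and 2.54 and the thioesterase Acot8 by 1.28 and 1.74, while the hydroxyacid oxidase Hao2 fell by 0.97 and 2.41. Of 14 further mitochondrial genes 4 and 6 were higher and none lower, among them the carnitine importer Slc22a5 (1.42 and 1.86), malonyl-CoA decarboxylase Mlycd (0.80 and 1.13) and Acacb (0.85 and 1.31), which makes the inhibitor of CPT1. Of 27 genes of fat uptake, droplets and the receptor 7 and 11 were higher and 1 and 0 lower. The fatty acid importer Cd36 rose by 3.07 and 4.12, lipoprotein lipase Lpl by 1.84 and 2.82 and the ligase Acsl3 by 2.15 and 1.62, while Slc27a5, which activates bile acids, fell by 1.42 in Wy on day 3. Of the adipocyte markers 1 of 4, Lpl itself, was called in DHEA on day 7, and the droplet protein Plin1 was at most 5.76 on any array.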

How the data were processed

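Livers of rats were measured on single-colour Affymetrix RAE230A arrays. The authors converted the scans with MAS 5.0 and made expression values with RMA (background correction, normalization between arrays and summarization over the probes of a set), and the deposited values are log2 signals per probe set, 1 column per animal. No RMA version was given in the sources used here. Array number limits the precision, and RMA draws dim probe sets together, so that changes near the floor are understated.

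Probe sets were named from the platform annotation (12783 had 1 gene symbol, 312 several and 2771 none), and a gene was read from its brightest probe set by mean signal. A linear model with 1 mean for each group was fitted to all arrays with limma 3.58.1 in R 4.3.3 and moderated by eBayes (285 residual and 4.67 prior degrees of freedom). Each treated group was compared with its labelled vehicle, p-values were adjusted by Benjamini and Hochberg over 15866 probe sets in each comparison, and calls required both an adjusted p under 0.05 and a 1.5-fold difference or more. Differences between compounds and between times were contrasts of the same fit. The fit was tested on simulated data. Figures were drawn with matplotlib 3.10.9.

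The members and the lists were chosen with earlier results of these data known. Every member could be named by role. For Wy and DHEA all members were accounted for, other comparisons name called members, at most 8 in a direction, those with the largest changes, and the wider lists name their 3 largest called changes in a direction and the ketone genes. Where values of individual animals are given beyond these, or a second probe set, they were chosen after the values were seen. The alternatives were a fit on each comparison's own arrays, quantile normalization, a filter on the mean (6 on the log2 scale), no minimum fold, any probe set of a gene, a block for the replicate number, omission of each array in turn and, added after seeing the data, leaving out 7 arrays with muscle or pancreas transcripts. Treated and vehicle animals share replicate numbers in the labels. Same-numbered animals did not deviate together (mean correlation 0.0131 over 98 comparisons), and every pair passed 0.1 in 4 comparisons (2-NF day 7, 3-MC day 14, ETH day 1 and Mcarb day 14). No 2 arrays held identical values. Nothing in the labels ties an animal to a hybridisation batch.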

Additional observations from a re-analysis of the deposited data

Results flagged for a closer look

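Of the sets of a member in a vehicle group of 4 or 6 livers, 136 were tested and not all. In 6 of the 136, 1 liver lay far from the others by Dixon's test. Chance flags about 1 in 20 sets, and 6 of 136 is not above that share. In the day 1 vehicle of PBO, ETH and DES, Ehhadh was 10.61 in replicate 4 (nearest 10.91) and Amacr 12.35 in replicate 2 (nearest 12.17). In the day 3 vehicle of the same compounds, Hadha was 10.80 in replicate 2 (nearest 10.94) and Echs1 11.63 in replicate 4 (nearest 11.75). In the day 7 vehicle of DHEA, Slc25a20 was 9.63 in replicate 3 (nearest 9.42) and Pdk4 8.80 in replicate 4 (nearest 8.60).

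The direct test of DHEA against Wy passed for 6 members on day 1 and 3 on day 3. DHEA minus Wy on day 1 was 2.51 for Acadsb, 0.84 for Pdk4, -1.14 for Cpt1b, -0.99 for Crat, -0.70 for Ehhadh and -0.64 for Pex11a. On day 3 it was 1.21 for Acadsb, 0.93 for Pdk4 and -1.06 for Cpt1b. Because both compounds share their vehicle arrays, these values are differences between the treated livers.

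The other flags are differences between the last and the first time of a compound. In DHEA the effect changed by 2.22 for Cpt1b, 1.79 for Crat and -1.59 for Acadsb, and in PBO by -0.85 for Pdk4 and -0.75 for Plin2. In ETH it changed by 2.12 for Ehhadh, 1.37 for Phyh, 1.09 for Eci1, 1.09 for Decr1, 1.06 for Ech1, 0.97 for Fabp1, 0.75 for Crat, 0.71 for Slc25a20, 0.63 for Eci2, 0.63 for Acsl1, 0.61 for Hadhb and -0.90 for Pex11a. In Aap it changed by -2.71 for Pex11a, -2.43 for Angptl4, -2.20 for Pdk4, -1.30 for Ehhadh, -1.27 for Acadsb, -1.22 for Cyp4a1, -0.90 for Cpt2, -0.89 for Crat, -0.88 for Acsl1, -0.84 for Plin2, -0.83 for Phyh, -0.82 for Acadm, -0.74 for Cpt1b and -0.67 for Echs1. The Cpt1b value of Aap was not called without the arrays with muscle or pancreas transcripts. In CIDB it changed by 1.62 for Ech1 and 1.20 for Cyp4a1, in CPA by 1.63 for Ehhadh and in MDA by -0.73 for Fabp1.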

How the results depend on the processing

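No single change followed through the settings was found to turn its direction, and counts of called members have no direction. Second, dim probe sets did differ in sign. That of Plin2 gave -0.31 and -0.14 in DHEA on days 3 and 7, against 1.29 and 1.37. That of Eci1 gave -0.10 in DHEA on day 14, against 2.85. Of the counts of called members, 143 stayed within 1.5 times the main count under the settings other than leaving out 1 array, and 18 did not. Without a minimum fold the counts were 20 for PBO day 3, 15 for ETH day 14, 22 for Aap 48 hours, 5 for Nif day 14, 12 for CIDB day 7, 11 for AB1 day 7, 8 for MPy day 7, 11 for DES day 3, 28 for ETH day 3, 23 for PBO day 1, 14 for DHEA minus Wy on day 1 and 5 for the change over time of DHEA. In fits on a comparison's own arrays 1 member was called for DHEA minus Wy on day 1, 1 on day 3, 1 for the change over time of PBO and 4 for that of ETH. With quantile normalization Ibup day 14 had 2. Without the arrays with muscle or pancreas transcripts Aap at 6 hours had 6. The cause was not tested beyond the construction of each setting (a looser rule, fewer arrays).

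With 1 array left out the counts ran from 25 to 28 in Wy day 1, 27 to 29 in Wy day 3, 17 to 22, 27 to 29, 28 to 29 and 22 to 26 in DHEA on days 1, 3, 7 and 14, 13 to 18 and 9 to 13 in PBO, 15 to 18, 16 to 19 and 5 to 7 in ETH on days 1, 3 and 14, 6 to 9 in Aap at 6 hours and 9 to 10 at 48 hours, 1 to 2 in Nif day 14, 3 to 5 in CIDB day 7, 2 to 7 in AB1 day 7, 2 to 3 in MPy day 7, 3 to 6 in DES day 3 and 1 to 2 in Ibup day 14. They ran from 3 to 9 and 2 to 3 in DHEA minus Wy on days 1 and 3, and for the change over time from 3 to 5 in DHEA, 0 to 3 in Wy, 0 to 2 in PBO, 7 to 16 in ETH and 13 to 16 in Aap. Of single members, Etfdh, Cpt1a, Acsl1 and Aldh3a2 lost a call in DHEA day 14 and Amacr, Angptl4 and Acsl1 in Wy day 3 without 1 array, and with quantile normalization Aldh3a2 (0.58) and Acsl1 (0.55) did in DHEA day 14.

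With the replicate number as a block the counts were 27 and 29 in Wy on days 1 and 3, 18, 29, 29 and 25 in DHEA on days 1, 3, 7 and 14, 18 and 11 in PBO, 15 in ETH day 1 and 5 in DES day 3, none of them off by more than 1.5 times, so the pairing changed no other count to that extent. The number of 3 animals a group limits all of these values, and a member short of the threshold is not shown to be unchanged.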

Other observations

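Genes outside the members moved beside Acadsb in 3 compounds. In Nif livers the peroxisomal oxidase Acox3 fell by 0.86, 0.86, 1.21 and 1.11 and the receptor partner Rxra by 0.70, 0.72, 1.00 and 0.83 on days 1, 3, 7 and 14, while the peroxisomal fatty acid transporter Abcd3 rose by 0.59, 1.02, 0.92 and 0.72. In AA livers of day 1, where Acadsb rose, Acox3 and Rxra rose by 0.71 and 0.68 and Abcd3 fell by 0.64. In DHEA livers of day 1 Acox3 and Rxra rose by 0.71 and 0.66 and Abcd3 fell by 0.70. The AA and DHEA livers of day 1 were set against the same vehicle arrays, so these changes are not independent of each other. These genes were picked after their values were seen.

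Some genes of the wider lists fell far in compounds other than Wy and DHEA. Hao2 fell by 4.53 in Aap at 48 hours, and Slc27a5 fell by 4.36 in ETH on day 3, both of which also fell in Wy on day 3. Crot, which rose in Wy and DHEA, fell by 1.25, 1.76, 2.59 and 2.38 in CPA on days 1, 3, 7 and 14. Fgf21, the fasting hormone that PPARα can raise, rose by 2.97 and 3.92 in MPy on days 3 and 7 and by 2.82 in Aap at 48 hours.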
